A study of Caenorhabditis elegans with 3 samples.

Results

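The dod and irg genes are response genes of the worm intestine. The 10 described here, out of 17118 genes with a probe set of their own on the array, are dod-3, dod-17, dod-19, dod-21, dod-22, dod-23, dod-24, irg-1, irg-4 and irg-5, and they were taken by name. The choice was made with earlier results of these data known, so the members' counts beside shares of all genes are a description. Every probe set annotated to one of these names was kept, which gave 11 of the 22625 probe sets. Of the 10 genes, 9 had a probe set of their own, dod-19 having a second one. The dod-21 gene was read only by a probe set that it shares with its chromosomal neighbour cld-1, so its values are those of both genes together and are counted apart from the other 9.

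RNA came from whole wild-type N2 (Bristol) Caenorhabditis elegans larvae, labelled as L1, whose parents were kept at 20 °C on Escherichia coli OP50. A control array was set beside one of bio-electrosprayed larvae, which had gone through a charged steel needle, and one of larvae held for 24 h at 30 °C as a heat shock positive control. The study asked how the transcripts of sprayed animals compare with those of untreated and heat-shocked ones. There was 1 array in each group, so the differences carry no replicate error and no test was possible. The labels give no age at collection beyond the larval stage, no number of animals, and no voltage applied other than what the power supply could deliver.

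The name dod stands for downstream of daf-16. These genes are known from animals with reduced signalling through the insulin receptor DAF-2, which frees the FOXO transcription factor DAF-16. In such animals dod-3 is among the transcripts that go up, and dod-17, dod-19, dod-21, dod-22, dod-23 and dod-24 are among those that go down. The name irg stands for infection response gene. The irg-1 transcript is induced by Pseudomonas aeruginosa and by blocked translation through the bZIP factor ZIP-2, whereas irg-4 and irg-5 depend on the p38 MAP kinase PMK-1, the kinase of the main intestinal immune pathway of the worm. Several members, among them dod-17, dod-21, dod-22, dod-24, irg-4 and irg-5, encode predicted secreted proteins with CUB-like domains.

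The values are GCRMA levels on a log2 scale, and the array medians were 3.147 (control), 3.157 (bio-electrospray) and 3.189 (heat shock). A difference of 1 is 2-fold. The 18 hybridization spike-in probe sets, which read transcripts added during the assay, differed from control by a median of −0.19 in the sprayed sample and −0.53 in the heat-shocked one. In genes with 2 bright probe sets, the difference from control of 1 probe set varied around that of its gene. The SD was 0.11 for bio-electrospray (1684 genes) and 0.30 for heat shock (1631 genes), which leaves out any variation between cultures. All intestine markers measured, 14 of 14, lay above the array median on each array. Markers of epidermis (9 of 9), body wall muscle (8 of 8), pharynx (9 of 9), neurons (9 of 10) and germline (9 of 10) were above it on the control array too. On the heat shock array 6 of 10 germline markers were above the median.

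**Figure D1:**
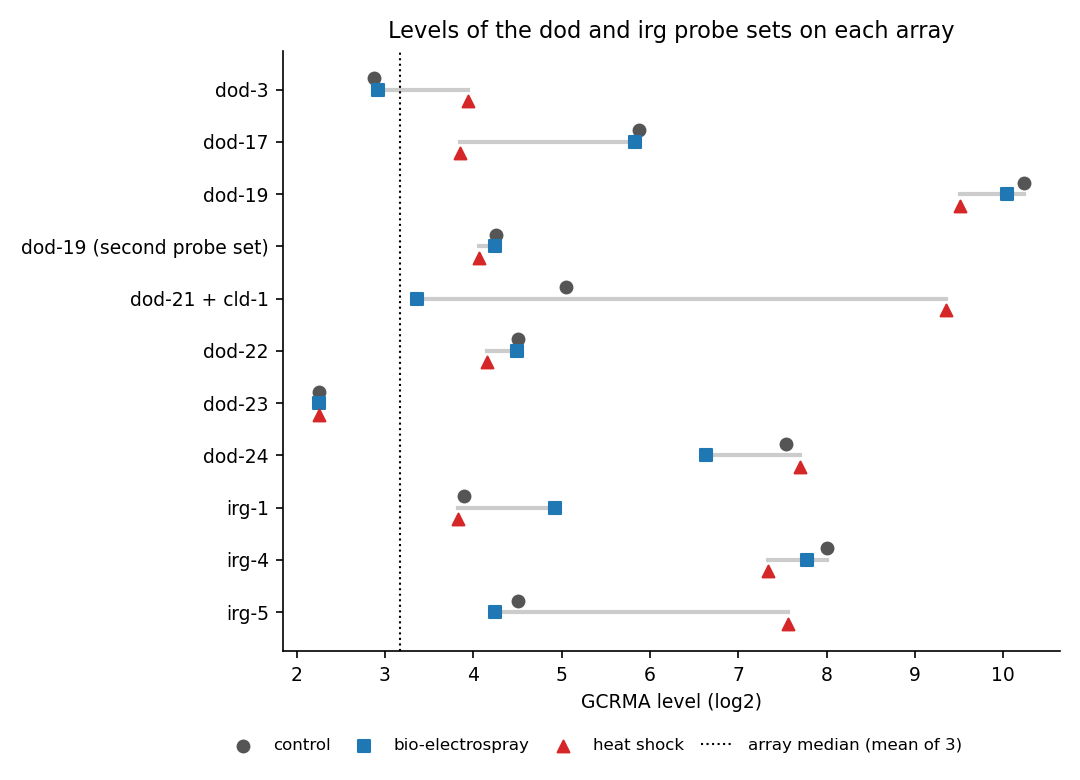
GCRMA level (log2, horizontal axis) of each probe set annotated to a member, with 1 point for each of the 3 arrays and a grey line over their range. The dotted line is the mean of the array medians. The probe set of dod-21 and cld-1 runs from 3.36 after bio-electrospray to 9.35 after heat shock, while dod-23 has the same level on all 3 arrays.

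After bio-electrospray the members went different ways. The surveillance gene irg-1 was 2.03-fold higher than in untreated larvae, the probe set of dod-21 and cld-1 was 3.23-fold lower, and dod-24 was 1.88-fold lower. The other 7 members lay within 1.2-fold of control. In RNA from whole animals fewer cells of a type and less RNA per cell cannot be told apart. Of the 9 genes with a probe set of their own, 1 was at least 2-fold higher, where 0.129% of all genes were, and none was at least 2-fold lower, where 0.0234% were (4 of 17118). The median of the 9 differences was −0.04, against 0.006 over all genes. It was 0.15 when the arrays were centred on the spike-ins, a scaling that adds 0.19 to every difference.

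The irg-1 gene (C07G3.2, chromosome V) had a level of 3.90 in untreated, 4.92 in sprayed and 3.83 in heat-shocked larvae. The sprayed larvae held the high value, and the other 2 arrays lay within 0.07 of each other. A difference of 1.02 after spraying compares with a range from −0.29 to 0.23 for the middle 95% of all genes, and 20 genes had a larger positive difference. All 3 levels lay above the array medians. With 16 added to the linear levels the irg-1 difference was 0.58, short of 2-fold. Against the bio-electrospray array, irg-1 was lower on the heat shock array by a log2 difference of −1.09.

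The regulator of irg-1, zip-2, stood at 8.58 in untreated, 8.98 in sprayed and 9.69 in heat-shocked larvae. Its level was thus highest on the heat shock array, where irg-1 was at its control level. Another infection response gene, irg-2, had levels of 3.53, 4.21 and 4.43 in the same order, with differences from control of 0.68 after spraying and 0.89 after heat. The 3 genes nearest to irg-1 in both differences from control, by Euclidean distance among 13986 genes of similar mean level, were the ABC transporter gene pgp-5 (distance 0.069), F14F9.4 (0.109) and the UDP-glucuronosyltransferase gene ugt-29 (0.183). Their differences after spraying were 1.09, 1.12 and 1.08, and those after heat were −0.08, −0.03 and 0.10. With only 3 arrays such likeness rests on 2 differences that share a control.

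**Figure D2:**
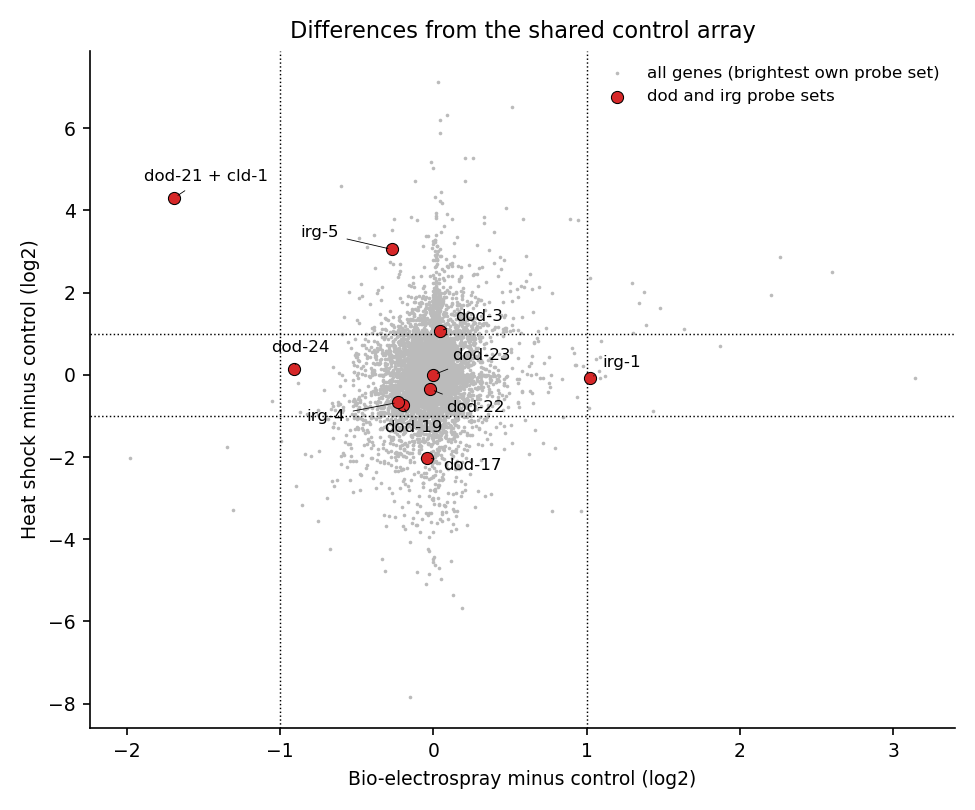
Log2 difference from control after bio-electrospray (horizontal axis) and after heat shock (vertical axis) for all genes (grey) and for the members (red, with the shared probe set of dod-21 and cld-1). Dotted lines mark 2-fold, and both axes use the same control array. The shared probe set lies at −1.69 and 4.31, irg-1 at 1.02 and −0.07, and irg-5 at −0.27 and 3.05.

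Among the CUB-like genes of chromosome IV, the probe set of dod-21 (C32H11.10) and cld-1 (C32H11.9) had the widest range. It read 5.05 in untreated, 3.36 in sprayed and 9.35 in heat-shocked larvae. It was thus low in sprayed and high in heat-shocked larvae, 19.8-fold above control and 63.9-fold above the sprayed larvae in the latter. Of the 17118 genes with a probe set of their own, 1 had a larger negative difference after spraying, and 14 had a larger positive difference after heat. The sprayed level lies close to the array median. With 16 added to the linear levels the differences were −0.90 after spraying and 3.77 after heat. Which of the 2 genes carries the signal was not tested.

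The nearby dod-24 (C32H11.12) had a level of 7.54 in untreated larvae, 6.63 in sprayed larvae and 7.70 in heat-shocked larvae. The sprayed larvae were the low ones, with a difference of −0.91 that 5 genes exceeded in the negative direction, and the heat-shocked larvae lay close to control at 0.15. Heat-shocked larvae were 2.09-fold above sprayed ones, or 0.96 (log2) with 16 added to the linear levels. The probe set of dod-24 is annotated to this gene alone but carries a suffix for sequence that may occur in other transcripts.

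In contrast to these, dod-17 (K10D11.1) was past 2-fold on the heat shock array only. It read 5.88 in untreated and 5.83 in sprayed larvae but 3.85 in heat-shocked larvae, 4.07-fold below control. A total of 209 genes had a larger negative difference after heat. The fourth gene of the group, dod-22 (F55G11.5), read 4.51 in untreated, 4.49 in sprayed and 4.16 in heat-shocked larvae. Its difference after heat, −0.35, was close to the SD of 0.30 between probe sets of a gene, and that after spraying was −0.02.

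These 4 genes lie within a run of 21 protein-coding genes from irg-6 to dod-17 in the gene order of the RefSeq assembly WBcel235, read by 19 probe sets. The run was chosen after the members' places were known, so its counts are a description. After heat shock, 5 of the 19 probe sets were at least 2-fold lower, where 4.1% of all probe sets on the array were, 1 was higher, where 4.61% were, and the rest lay between. Among probe sets above the median on at least 1 of both arrays, 10 of the 19 in the run, these shares were 7.75% and 8.71%. The lower ones were dod-17, F55G11.8 (6.48 in untreated and 3.11 in heat-shocked larvae, difference −3.37), C32H11.4 (6.37 and 4.90, −1.47), mbug-1 (7.67 and 6.33, −1.34) and C32H11.3 (3.75 and 2.5, −1.25). Of these mbug-1 is the direct neighbour of dod-17, and the other 3 were named after their values were seen, F55G11.8 being the direct neighbour of dod-22. After bio-electrospray the probe set of dod-21 and cld-1 was the 1 of 19 at least 2-fold lower, where 0.0221% of all probe sets were. None was at least 2-fold higher, where 0.119% were. Below 2-fold, C32H11.4 and mbug-1 had differences of −0.57 and −0.55, the same direction as dod-24. The rest of the run lay between −0.05 (F55G11.8) and 0.06 (srlf-5).

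**Figure D3:**
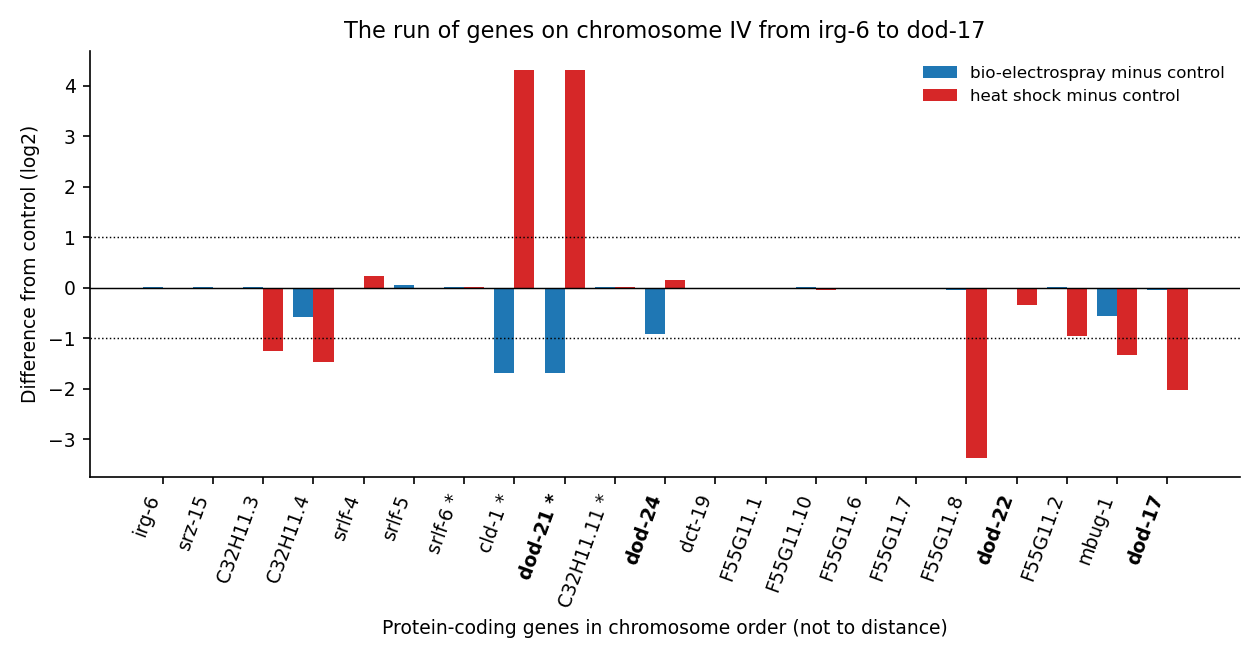
Log2 difference from control after bio-electrospray (blue) and heat shock (red) for the 21 protein-coding genes from irg-6 to dod-17, in chromosome order and not to distance. Members are in bold, and an asterisk marks a gene read only by a probe set shared with another gene, drawn at both. A bar upward to 4.31 for dod-21 and cld-1 stands among bars downward, to −3.37 for F55G11.8 and −2.02 for dod-17.

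Heat shock set members apart in both directions. The PMK-1-dependent gene irg-5 was 8.26-fold higher and dod-3, a gene activated through DAF-16, 2.09-fold higher, while dod-17 was lower. Among the 9 genes with their own probe set, 2 were at least 2-fold higher, where 4.69% of all genes were, and 1 was at least 2-fold lower, where 4.33% were. Of the genes above the array median on at least 1 of both arrays, 8.9% were higher and 8.24% lower. The median over the 9 members was −0.07, against −0.02 over all genes. Centring on the spike-ins adds 0.53 to every difference, and the members' median was then 0.46, with the same 3 genes past 2-fold, while the split over all genes moved from 802 higher and 742 lower to 1962 higher and 377 lower.

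The irg-5 gene (F35E12.5, chromosome V) had levels of 4.51 in untreated, 4.24 in sprayed and 7.56 in heat-shocked larvae. The heat-shocked larvae stood high, with a difference of 3.05 that 53 genes exceeded. The other PMK-1-dependent member, irg-4 (F08G5.6, chromosome IV), read 8.01, 7.78 and 7.34 in the same order. It was lowest where irg-5 was highest, at −0.67 after heat, and its difference after spraying was −0.23 beside −0.27 for irg-5. When the arrays were centred on the spike-ins, irg-4 lay at −0.14 after heat and irg-5 at 3.58.

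The genes nearest to irg-5 in both differences, among 6695 of similar mean level, were ugt-39 (distance 0.182), phat-8 (0.22) and ttr-23 (0.264), with differences after heat of 3.12, 3.14 and 3.09. In the gene order around irg-5, 3 genes on either side had probe sets and none was 2-fold apart from control. The largest of their differences after heat was −0.79, that of cld-9, and F35E12.9 next to irg-5 read 5.0 in untreated and 4.99 in heat-shocked larvae. Around irg-4, 2 of the genes within 3 places were past 2-fold after heat, in opposite directions, while ugt-65 and C25G4.17 had no probe set. Over all genes 4.69% were higher and 4.33% lower. The collagen gene col-130 read 8.81 in untreated and 5.31 in heat-shocked larvae (−3.50), and C25G4.2 read 4.59 and 7.05 (2.46). These neighbours of irg-4 and irg-5 were named after their values were seen.

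The dod-3 gene (C24B9.9, chromosome V) stood at 2.88 in untreated and 2.92 in sprayed larvae, both below the array median, and at 3.94 in heat-shocked larvae. Only the heat shock array brought it above the median. Its difference of 1.06 was 0.42 with 16 added to the linear levels, and its probe set may also read other transcripts by its suffix. For dod-19 (ZK6.10, chromosome V) the brighter probe set read 10.24 in untreated, 10.04 in sprayed and 9.51 in heat-shocked larvae, differences of −0.20 and −0.74. The second probe set of dod-19 read 4.26, 4.24 and 4.07, differences of −0.01 and −0.19. The probe sets of dod-19 agree in direction but differ in size, the brighter one carrying a suffix for shared sequence. The dod-23 gene (F49E12.2, chromosome II) had 2.25 on all 3 arrays, the same value to every digit. This level is low, at percentile 5.62 of the control, 5.08 of the bio-electrospray and 6.86 of the heat shock array. It gives no information on change.

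In the gene order of chromosome V, dod-19 is followed directly by irg-8, and dod-20 lies 3 genes after dod-19. The irg-8 gene read 9.71 in untreated and 8.39 in heat-shocked larvae, a log2 difference of −1.31, and the sprayed larvae lay 0.30 above control. Its direction after heat was that of dod-19, whereas dod-20 read 2.94, 2.94 and 3.84. Beyond the members, 8 further dod and irg genes had their own probe set. None was 2-fold apart after bio-electrospray, where 0.129% of all genes were higher and 0.0234% lower. Their differences ran from −0.37 (irg-3) to 0.68 (irg-2). After heat shock 2 of the 8 were at least 2-fold lower, where 4.33% of all genes were, and none was higher, where 4.69% were. Among genes above the array median on at least 1 of both arrays these shares were 8.24% and 8.9%. The 2 lower genes were irg-8 and irg-3, the latter with levels of 7.29 in untreated and 4.94 in heat-shocked larvae (−2.36). The other 6 lay between −0.11 (dod-18) and 0.89 (dod-20 and irg-2), with dod-6 at 0.82, irg-7 at 0.21 and irg-6 at −0.03.

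Directly between the treatments, 3 of the 9 members with their own probe set were at least 2-fold higher in heat-shocked than in sprayed larvae, against 4.64% of all genes, and 2 were at least 2-fold lower, against 4.08%. The higher ones were irg-5 (9.93-fold), dod-24 (2.09-fold) and dod-3 (2.03-fold), and the lower ones dod-17 (3.95-fold) and irg-1 (2.13-fold). For dod-3 the difference of 1.02 was 0.99 with quantile normalization or median centring, just below 2-fold. The irg-1 difference of −1.09 was −0.72 with the arrays centred on the spike-ins. With 16 added to the linear levels the differences of dod-3, dod-24 and irg-1 were all short of 2-fold, at 0.41, 0.96 and −0.61. The comparison shares its arrays with both comparisons above. The remaining members, dod-19, dod-22, dod-23 and irg-4, lay between −0.54 and 0.

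The pathways that govern these genes were read from lists of their known components. Counts past 2-fold after heat in these lists stand beside shares over all genes of 4.69% higher and 4.33% lower, or 8.9% and 8.24% among genes above the array median. After spraying the shares over all genes were 0.129% higher and 0.0234% lower. With shares so low, a short list with none past 2-fold says little about its pathway. None of 9 genes of the p38 MAP kinase pathway was 2-fold apart after spraying (median 0), the furthest being nipi-3, which encodes a Tribbles-type pseudokinase, at 0.45. After heat, 3 of the 9 passed 2-fold, all of them upward, and the median was 0.54. These were nipi-3 (5.65 in untreated and 7.66 in heat-shocked larvae), the TIR-domain adaptor gene tir-1 (5.55 and 6.99) and vhp-1, encoding a phosphatase that opposes the MAP kinases (7.05 and 8.36). As deposited, the kinase genes themselves were below 2-fold, with pmk-1 at 0.24, sek-1 at 0.54, pmk-2 at 0.87 and pmk-3 at 0.48. So was the PMK-1 target factor gene atf-7 at 0.20. Centring on the spike-ins adds 0.53 to each difference after heat, enough to take sek-1, pmk-2 and pmk-3 past 2-fold. The same shift applies to the other lists and to the tissue markers. No single-gene probe set was found under the name nsy-1.

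A list of 13 genes known as targets of PMK-1 or of the infection response, irg-2, irg-3 and irg-6 among them, spread both ways after heat, with a median of −0.03, 3 genes higher and 3 lower by 2-fold or more. The C-type lectin gene clec-60 read 3.11 in untreated and 9.44 in heat-shocked larvae, and clec-4 went the other way, from 6.46 to 3.13. The PMK-1 reporter gene sysm-1 (T24B8.5) read 3.74 in untreated, 3.25 in sprayed and 5.07 in heat-shocked larvae, the same order as irg-5. None of the 13 was 2-fold apart after spraying, with clec-4 furthest at 0.96. Of 6 bZIP genes, zip-2 among them, none was 2-fold apart after spraying, and zip-10 (1.81) and zip-2 (1.11) were at least 2-fold higher after heat. The stress factor gene atf-4 lay at 1.0 after heat, just short of the threshold before rounding, and zip-1 at 0.98.

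Of 17 insulin and FOXO pathway genes, none was 2-fold apart after spraying and 4 were at least 2-fold higher after heat, the Hippo-type kinase gene cst-1 (1.39), the kinase gene pdk-1 (1.23), pqm-1 (1.17) and the receptor substrate gene ist-1 (1.13). PQM-1 is a zinc finger factor known to act on the class of dod genes that go down in daf-2 mutants. Its transcript read 6.19 in untreated, 6.61 in sprayed and 7.36 in heat-shocked larvae. The transcript of daf-16 read 6.35, 6.24 and 6.60 in that order, and daf-2 lay below the array median throughout. In a list of 14 genes drawn up as DAF-16 targets, 3 were higher after heat and 1 lower (median 0.23). The metallothionein gene mtl-1 had a difference of 3.61, the superoxide dismutase gene sod-3 one of 1.85 and the ferritin gene ftn-1 one of 1.64. These have the direction of dod-3, and dct-16 lay at −3.59. Like dod-3, sod-3 and ftn-1 lay below the array median in untreated (2.71 and 2.35) and sprayed larvae (2.90 and 2.36). None of the 14 was 2-fold apart after spraying, the furthest being the glyoxylate cycle gene icl-1 at 0.51.

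**Figure D4:**
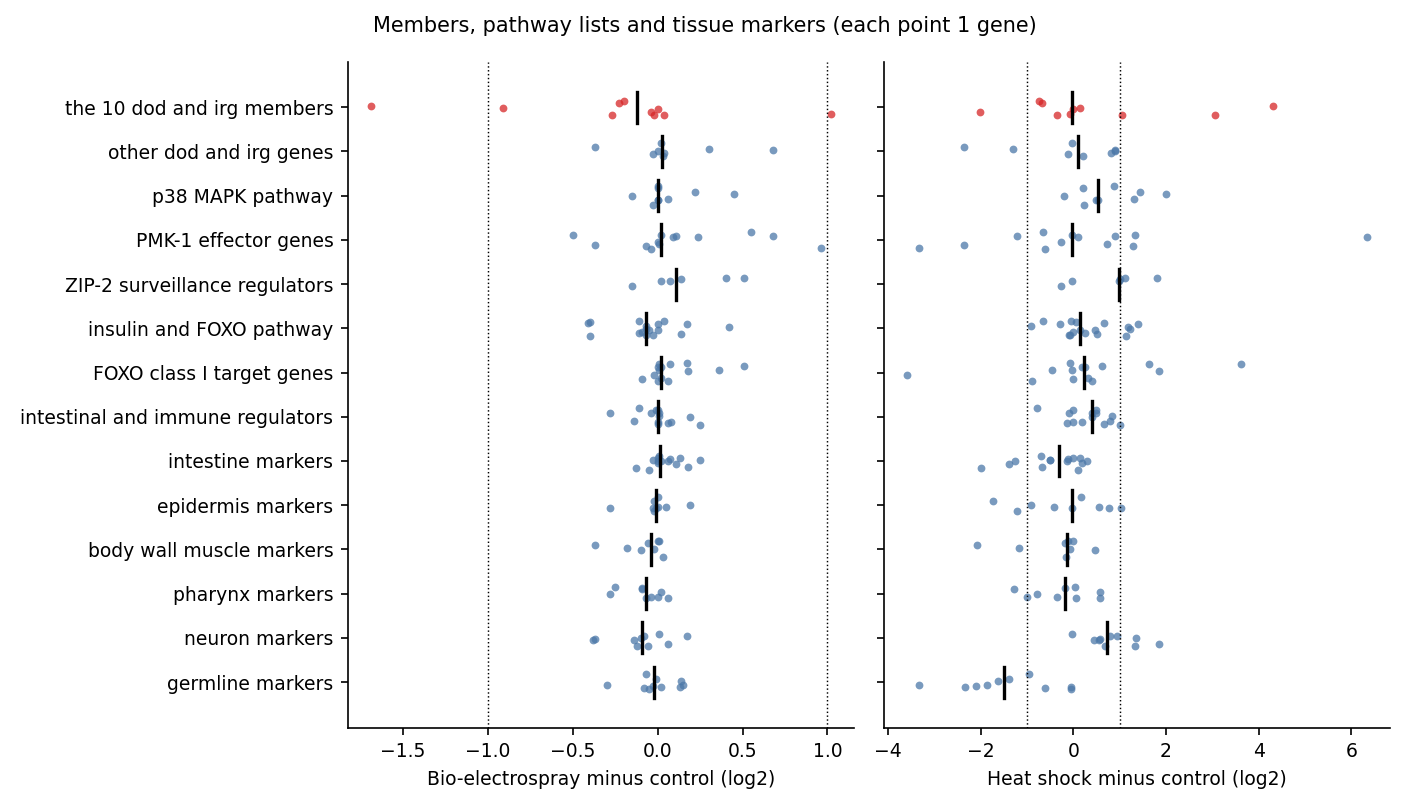
Log2 difference from control after bio-electrospray (left) and after heat shock (right), 1 point a gene, for the members (red, dod-21 by its shared probe set), the other dod and irg genes, the pathway lists and the tissue marker lists (blue). Black bars are medians, dotted lines mark 2-fold, and the panels have different scales. On the left all points other than irg-1 and the probe set of dod-21 and cld-1 lie within 2-fold, and on the right the members spread from −2.02 to 4.31.

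The intestine as a tissue was read from its markers. Their counts after heat stand beside the same shares of 4.69% higher and 4.33% lower over all genes. Among genes above the array median, where all 14 markers lie, the shares were 8.9% and 8.24%. After bio-electrospray the 14 intestine markers had a median difference of 0.02 (range −0.13 to 0.25), and the log2 of their summed linear level was 13.36 against 13.31 on the control array. After heat shock their median was −0.31, with 3 of 14 at least 2-fold lower and none higher, and the log2 of the sum was 13.21. These are values as deposited, and the 0.53 added by centring on the spike-ins would turn the sign of that median. The 3 were the cathepsin B-like protease gene cpr-6 (−2.0), the gut esterase gene ges-1 (−1.38) and the peptide transporter gene pept-1 (−1.26). The intestinal GATA factor gene elt-2 stayed near its control level of 4.65, at 4.71 in sprayed and 4.52 in heat-shocked larvae. In a list of 14 intestinal and immune regulators that includes elt-2, only sma-3 of the TGF-beta pathway reached 2-fold, at 1.0 after heat, followed by bar-1 at 0.83, nhr-8 at −0.79 and nhr-49 at 0.78.

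Other tissues differed after heat as well. Counts of their markers past 2-fold stand beside the same shares of 4.69% higher and 4.33% lower over all genes. Among genes above the array median, as most of these markers are, the shares were 8.9% and 8.24%. Median differences of their markers were 0.73 in neurons (3 of 10 at least 2-fold higher), −1.51 in the germline (6 of 10 lower), −0.04 in epidermis, −0.14 in body wall muscle and −0.18 in pharynx. After spraying these medians lay between −0.09 and −0.01. The part of tissue makeup or of developmental stage in the members' differences was not tested. A hold of 24 h is given for the heat-shocked larvae only, so heat and time cannot be told apart in their difference from control.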

How the data were processed

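The authors deposited 1 log2 GCRMA level per probe set and array (3 arrays, 22625 probe sets); the submitters' processing notes name GCRMA, and its settings are not given in the sources used here. The log2 scale was taken from the method's name and from the range of values (1.81 to 13.96). Such levels have a floor. Equal values on 2 arrays were common (27.9% of probe sets between bio-electrospray and control) and were not confined to that floor. The act-5 gene, for example, read 9.98 on all 3 arrays, and sqt-3 read 13.04 on the control and sprayed arrays. By the platform annotation 20766 probe sets had 1 gene symbol, 887 several and 972 none. A gene was represented by its single-gene probe set with the highest mean over the arrays. Gene order came from the RefSeq table of WBcel235. With 1 array per group the levels were subtracted, and genes differing 2-fold or more (1 on the log2 scale) were counted without a test whatever their level; the number of arrays limits the precision. The counting was tested on simulated data. The members and lists were chosen with earlier results of these data known. Other genes named were all dod and irg genes, up to 4 per pathway list with the largest absolute difference from control, set regulators, 2-fold changed neighbours within 3 genes of a member itself 2-fold apart from control, and the 3 nearest in pattern within 2 log2 units of mean level; names beyond this rule are extra members or markers of those lists, or are said to be named after their values were seen. All value columns belong to the 3 samples (0 others). Python 3.11.15 with numpy 2.4.6, pandas 2.3.3, statsmodels 0.14.6 and matplotlib 3.10.9 was used.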

Additional observations from a re-analysis of the deposited data

How the results depend on the processing

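No paired analysis was possible because each group has 1 array. Quantile normalization, median centring, loess centring (span 0.3) and the mean over probe sets changed no count of members past 2-fold by over 1.5 times. Nor did they move the members' median beyond the SD of 1 probe set around its gene. Centring on the spike-ins moved the median to 0.146 (bio-electrospray minus control), 0.462 (heat shock minus control) and 0.035 (heat shock minus bio-electrospray), from −0.042, −0.071 and −0.331, and left 1 member lower in the last. With an offset of 16, 0 members were higher after spraying and 1 after heat, and between treatments 1 was higher and 1 lower. At 3-fold the same 4 counts were 0, 1, 1 and 1. At 1.5-fold, 1 member was lower after spraying and 3 after heat. Without probe sets marked as shared (7 members), 1 was higher after heat and 1 between treatments. With probe sets of several genes, 1 was lower after spraying. Over the 7 members above the median on at least 1 array, or on both, the median after spraying was −0.199, and 1 of 7 above it on both was higher after heat. Over all probe sets above the median on at least 1 array, 32, 1969 and 1897 were 2-fold apart in the 3 comparisons, 13, 1035 and 966 with the offset, 153, 3776 and 3767 at 1.5-fold and 10, 863 and 808 at 3-fold. Centring these on the spike-ins, chosen after seeing the data, gave 3004 after heat. Levels below the array median limit what dod-23, on every array, and dod-3, on the control and sprayed arrays, can show.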
